A study of Mus musculus with 16 samples.

Results

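The subject is a set of 10 mouse genes of blood vessel growth and vascular endothelium in MYC-driven liver tumours, measured on arrays as 10 of the 22180 genes with a row of their own. The set was chosen by gene symbol: the receptors Kdr, Flt1, Flt4 and Tek, the ligands Vegfa and Angpt2, and the endothelial genes Esm1, Plvap, Vwf and Emcn. Each had exactly 1 row with a single symbol, and all 10 were tested. Liver was taken at 18 months of age from 4 MYC/REG3A mice, labelled MYC+/+, REG3A+/+, and from 4 MYC mice, labelled MYC+/+, REG3A-/-, on a C57BL/6J background. In both genotypes c-MYC was expressed in the liver from a transgene driven by woodchuck hepatitis virus sequences, so every piece of liver analysed here carried that oncogene and none came from a mouse without it. The double transgenic mice additionally carried REG3A, a gene for a secreted lectin; the promoter of that transgene is not given in the sources used here. A tumour and a piece of surrounding non-tumour liver came from every mouse, which gave 4 groups of 4 arrays: MYC/REG3A tumours, MYC/REG3A non-tumour liver, MYC tumours and MYC non-tumour liver. The design sets tumour against non-tumour liver within each genotype, and the genotypes against each other.

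Blood vessels sprout when VEGF-A binds its receptor KDR on endothelial cells, while FLT1 binds the same ligand more tightly and signals less, so that it limits the response. FLT4 is the receptor for VEGF-C and VEGF-D and marks lymphatic vessels and the sinusoids of the liver. TEK, also called TIE2, keeps vessels quiescent when angiopoietin 1 binds it, and angiopoietin 2, made by activated endothelium, can block it. In the liver most endothelium is that of the sinusoids, a fenestrated capillary bed with its own marker genes, and hepatocytes are a main source of VEGF-A.

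All arrays had near-equal distributions, with array medians of 4.896 to 4.973 and lower quartiles of 3.708 to 3.774 on the log2 scale. On the first principal component of the 13555 tested genes, which held 49.2% of the variance, MYC/REG3A tumours 1 and 3 had scores of 42.19 and 35.88 and MYC tumours scores of 32.7 to 42.29, against -30.96 to -26.38 for all non-tumour livers. Between these ranges were MYC/REG3A tumours 2 and 4, with scores of -4.211 and 2.551. Results for MYC/REG3A tumours are therefore also given without those mice. Hepatocyte markers, 10 of them, averaged 11.7 to 12.07 in MYC/REG3A tumours, 12.06 to 12.13 in MYC/REG3A non-tumour liver, 11.65 to 11.9 in MYC tumours and 11.93 to 12.11 in MYC non-tumour liver. In bulk tissue, fewer cells of a type and less RNA per cell cannot be told apart, and this holds for every endothelial gene described here.

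The windows before the annotated gene starts are shown for a pair of genes that were lower in the tumours of all 8 mice, Kdr and Tek, and for Emcn and Esm1, whose mean was higher there. Each gives the 250 bases before the start in the 5′ to 3′ direction of the gene, from RefSeq on GRCm38.p6, with the letters GGAA or the reverse TTCC, the core recognised by the ETS factors of endothelium such as ERG, in capitals.
Kdr (chr5:75978456-75978705, - strand): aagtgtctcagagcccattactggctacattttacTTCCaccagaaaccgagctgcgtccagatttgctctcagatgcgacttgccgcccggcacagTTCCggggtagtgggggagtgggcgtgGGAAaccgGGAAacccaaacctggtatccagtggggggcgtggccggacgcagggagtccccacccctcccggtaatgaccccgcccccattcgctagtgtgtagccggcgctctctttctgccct
Tek (chr4:94739039-94739288, + strand): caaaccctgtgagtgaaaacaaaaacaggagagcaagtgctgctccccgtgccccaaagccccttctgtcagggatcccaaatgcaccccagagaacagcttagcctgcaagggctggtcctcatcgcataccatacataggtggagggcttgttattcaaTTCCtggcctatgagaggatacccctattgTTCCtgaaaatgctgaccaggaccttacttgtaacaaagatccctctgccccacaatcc
Emcn (chr3:137340828-137341077, + strand): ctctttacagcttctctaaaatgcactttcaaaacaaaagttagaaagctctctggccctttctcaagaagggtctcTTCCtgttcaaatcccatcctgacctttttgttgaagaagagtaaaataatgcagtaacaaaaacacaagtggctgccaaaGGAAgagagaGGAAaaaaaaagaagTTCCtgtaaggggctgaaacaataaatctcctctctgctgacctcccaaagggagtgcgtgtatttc
Esm1 (chr13:113209409-113209658, + strand): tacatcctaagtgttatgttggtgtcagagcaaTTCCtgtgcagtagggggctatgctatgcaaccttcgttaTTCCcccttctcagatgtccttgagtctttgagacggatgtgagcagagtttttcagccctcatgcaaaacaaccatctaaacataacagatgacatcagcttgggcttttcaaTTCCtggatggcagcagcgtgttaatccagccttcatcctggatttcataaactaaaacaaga
The core was present 4 times in the Kdr window, 2 times in that of Tek, 4 times in that of Emcn and 3 times in that of Esm1. It was also present in 93.4% of all 32851 windows of this length, with a median of 3 matches. None of the 8 windows of these and the other genes with an entry held CACGTG, the E-box that MYC binds with MAX, which 6.02% of all windows held on either strand, and 1 of the 8, a window of Vegfa, held ACGTG, a core of hypoxia response elements that is contained in CACGTG and that 16.6% of all windows held. Windows were available for 7 of the 10 genes, with 2 for Vegfa. The Vegfa window with ACGTG was at chr17:46025164-46025413 on the - strand. That window lies downstream of the other annotated Vegfa start, thus inside the gene as read from there. Its match is therefore not read as a hypoxia response element of the Vegfa promoter. The other Vegfa window, at chr17:46032378-46032627, lies farther upstream in the direction of the gene and held ACGTG 0 times. Whether the match acts as such an element was not tested.

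Over both genotypes, the tumours had less Kdr, Tek, Plvap, Vegfa, Flt1 and Vwf and more Esm1 and Emcn than the non-tumour liver of the same mice. In the mean of the tumour changes of both genotypes (n = 8 mice), 3 of the 10 genes were higher (Esm1, Emcn and Angpt2) and 6 lower at a limma adjusted p under 0.05, where 43.0% of all 13555 tested genes passed, 21.5% higher and 21.4% lower. The median change of the 10 genes was -0.378 on the log2 scale, against -0.0249 over all tested genes. Angpt2 entered the test only through tumours, since it exceeded the array median in 4 tumours and in 0 non-tumour livers, so its test is conditional on the tissue where it is high. It is listed in the counts here and below for completeness, and nothing is read from it. Flt4 was the only one of the 10 that did not pass. Kdr, Tek, Plvap and Vegfa were lower in the tumours of all 8 mice, as were 12.6% of all tested genes.

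**Figure D1:**
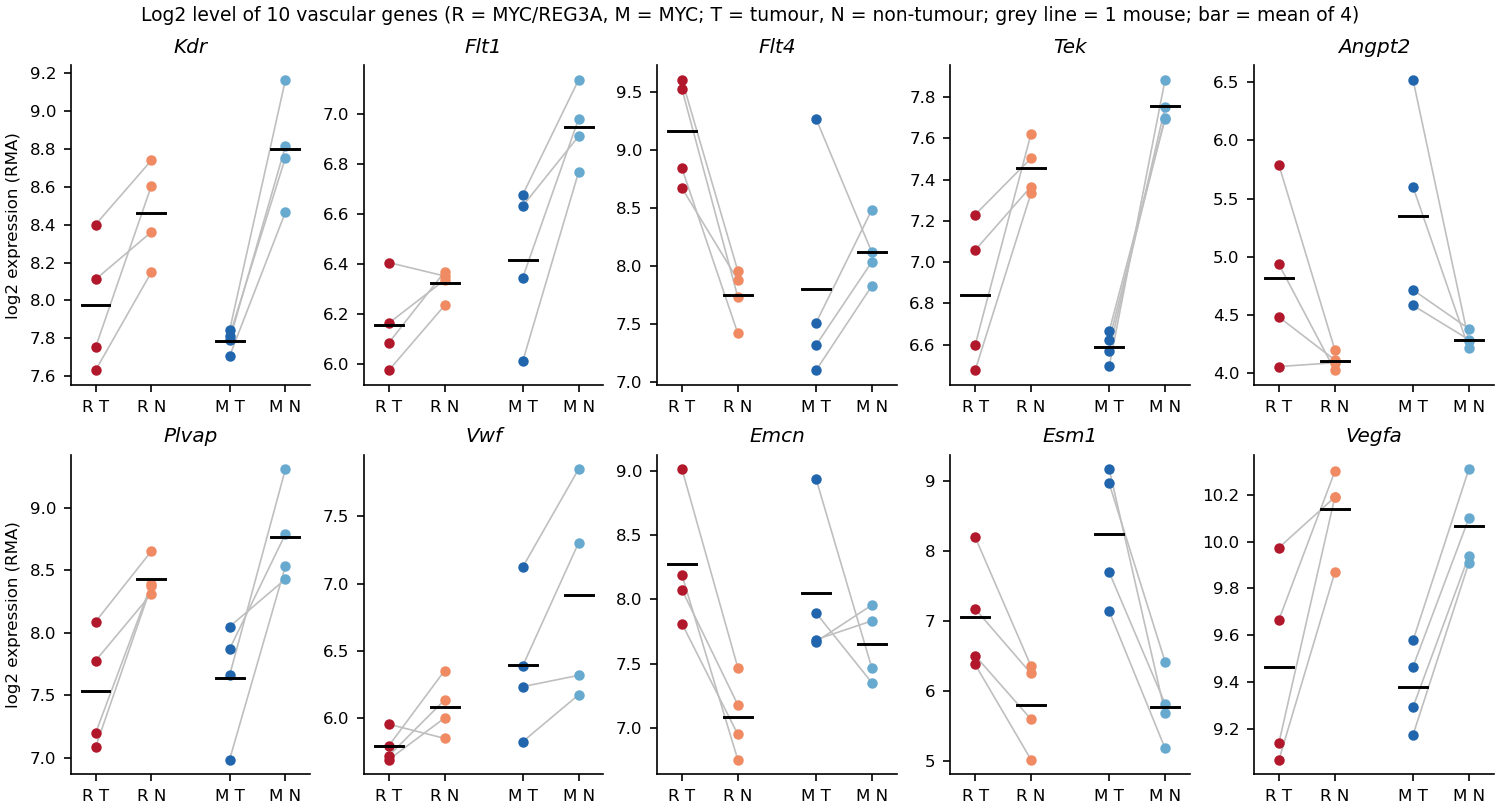
Log2 expression (RMA) of the 10 genes on all 16 arrays, with an axis of its own for each gene; in each panel the groups from left to right are MYC/REG3A tumour, MYC/REG3A non-tumour, MYC tumour and MYC non-tumour. Points are arrays, grey lines join the pieces of a mouse and black bars are means of 4; Kdr, Tek, Plvap and Vegfa were lower and Esm1 higher in the tumour of every mouse.

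Among the receptors, Kdr had log2 values of 7.63, 8.40, 7.75 and 8.11 in the tumours of MYC/REG3A mice 1 to 4, against 8.15, 8.74, 8.60 and 8.36 in their non-tumour liver. The 4 MYC mice had 7.81, 7.79, 7.71 and 7.84 in tumours, against 8.75, 8.81, 8.47 and 9.16 in non-tumour liver. The tumour of each of the 8 mice was lower than its own non-tumour liver, and the MYC tumours were nearly alike (SD 0.0585), while the MYC/REG3A tumours were spread (SD 0.35) and overlapped with non-tumour liver. Kdr fell by 0.49 (SE 0.128, limma adjusted p = 0.0362) in MYC/REG3A tumours and by 1.01 (SE 0.128, adjusted p = 0.000946) in MYC tumours, a level 2.02-fold lower. In MYC/REG3A mice that call was lost without any 1 of the 4 mice (adjusted p = 0.0535 to 0.163), without mice 2 and 4 together (adjusted p = 0.0524), without the mouse as a block (adjusted p = 0.08) and with it as a random block (adjusted p = 0.0547).

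Tek, the angiopoietin receptor, followed Kdr. It had 6.48, 7.23, 6.60 and 7.06 in MYC/REG3A tumours 1 to 4, against 7.33, 7.50, 7.62 and 7.37 in the paired non-tumour liver. Values in MYC mice were 6.62, 6.67, 6.57 and 6.50 in tumours, against 7.70, 7.69, 7.75 and 7.88 in non-tumour liver. No tumour reached the lowest non-tumour liver, so the tissues did not overlap across all 16 arrays. Tek fell by 0.62 (SE 0.141, limma adjusted p = 0.0243) in MYC/REG3A tumours and by 1.17 (SE 0.141, adjusted p = 0.000866) in MYC tumours.

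Flt1 had 6.16, 6.40, 6.08 and 5.97 in MYC/REG3A tumours 1 to 4, against 6.34, 6.35, 6.37 and 6.23 in non-tumour liver. In MYC mice the values were 6.01, 6.63, 6.34 and 6.68 in tumours, against 6.77, 6.91, 6.98 and 7.14 in non-tumour liver. It fell by 0.53 in MYC tumours (SE 0.109, limma adjusted p = 0.00563), in all 4 mice and without overlap. In MYC/REG3A mice the difference was -0.17 (SE 0.109, adjusted p = 0.343), with 3 of 4 tumours lower and overlapping tissues.

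Flt4, the receptor for VEGF-C and VEGF-D, went a different way from Kdr and Tek. It had 8.84, 8.67, 9.60 and 9.52 in MYC/REG3A tumours 1 to 4, against 7.42, 7.88, 7.96 and 7.74 in the paired non-tumour liver. MYC mice 1 to 4 had 7.32, 9.27, 7.10 and 7.51 in tumours, against 8.04, 8.12, 7.83 and 8.48 in non-tumour liver. All MYC/REG3A tumours lay above all MYC/REG3A non-tumour livers, while 3 of the 4 MYC tumours lay below their own non-tumour liver and that of MYC mouse 2 lay above it. Flt4 rose by 1.41 in MYC/REG3A tumours (SE 0.31, limma adjusted p = 0.0215), 2.66-fold, and differed by -0.32 in MYC tumours (SE 0.31, adjusted p = 0.467). The difference between these changes was 1.73 (SE 0.439), with an unadjusted p of 0.00291 and an adjusted p of 0.873 over all genes, so it did not pass. MYC mouse 2 decided the MYC value: without it the MYC change was -0.81 (limma adjusted p = 0.0124). The MYC/REG3A call was lost without mouse 1, 3 or 4 (adjusted p = 0.069 to 0.0999) and without mice 2 and 4 together (change 1.53, adjusted p = 0.0752).

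Of the ligands, Vegfa was lower in the tumour of every mouse. It had 9.07, 9.97, 9.14 and 9.67 in MYC/REG3A tumours 1 to 4, against 9.87, 10.19, 10.19 and 10.30 in non-tumour liver. MYC mice had 9.17, 9.46, 9.58 and 9.29 in tumours, against 9.91, 10.10, 10.31 and 9.94 in non-tumour liver. The MYC tissues did not overlap, and in MYC/REG3A mice the tumour of mouse 2 reached into the range of non-tumour liver. Vegfa fell by 0.67 (SE 0.128, limma adjusted p = 0.0139) in MYC/REG3A tumours and by 0.69 (SE 0.128, adjusted p = 0.00391) in MYC tumours, and the difference between these changes was 0.013 (SE 0.181, adjusted p = 0.992).

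Angpt2 was near the low end of the scale in non-tumour liver and uneven among the tumours. It had 4.93, 4.06, 5.79 and 4.48 in MYC/REG3A tumours 1 to 4, against 4.03, 4.09, 4.20 and 4.11 in non-tumour liver. The 4 MYC mice had 4.72, 6.52, 4.58 and 5.60 in tumours, against 4.38, 4.28, 4.29 and 4.21 in non-tumour liver. The tumours of MYC mice 2 and 4 and of MYC/REG3A mouse 3 were highest, and that of MYC/REG3A mouse 2 was at the level of non-tumour liver. The difference was 0.71 in MYC/REG3A mice (SE 0.334, limma adjusted p = 0.189) and 1.06 in MYC mice (SE 0.334, adjusted p = 0.0346). These are descriptions, because the filter admitted Angpt2 only through tumours. Without the filter the MYC value had an adjusted p of 0.0556, and without MYC mouse 2 or mouse 4 the difference was 0.672 or 0.958 (adjusted p = 0.13 and 0.122).

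Esm1 encodes endocan, a proteoglycan secreted by the tip cells that lead vessel sprouts, and its rise was the largest change of the 10 in either direction when averaged over genotypes, at 1.86 (SE 0.178, n = 8 mice, limma adjusted p = 0.000144), 3.62-fold. It had 7.17, 6.51, 8.20 and 6.38 in MYC/REG3A tumours 1 to 4, against 6.25, 5.60, 6.36 and 5.02 in the paired non-tumour liver. Values in MYC mice were 7.14, 9.17, 7.69 and 8.96 in tumours, against 5.18, 5.69, 5.82 and 6.42 in non-tumour liver. Every tumour exceeded its own non-tumour liver, a pattern that 1894 of the 13555 tested genes (14%) showed, and the tissues overlapped in neither genotype. Esm1 rose by 1.26 in MYC/REG3A tumours (SE 0.252, limma adjusted p = 0.0165) and by 2.46 in MYC tumours (SE 0.252, adjusted p = 0.000503). The difference between these changes, -1.20 (SE 0.357), had an unadjusted p of 0.00729 and an adjusted p of 0.873. The MYC/REG3A call was lost without mouse 1 or 3 (adjusted p = 0.055 and 0.0856), without mice 2 and 4 together (adjusted p = 0.0647), without the mouse as a block (adjusted p = 0.0963) and with it as a random block (adjusted p = 0.0643).

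Emcn encodes endomucin, a sialomucin of capillary and venous endothelium. It had 8.19, 8.07, 9.02 and 7.81 in MYC/REG3A tumours 1 to 4, against 6.75, 7.18, 7.47 and 6.95 in non-tumour liver. In MYC mice the values were 7.69, 8.94, 7.90 and 7.67 in tumours, against 7.83, 7.47, 7.35 and 7.96 in non-tumour liver. The MYC/REG3A tissues did not overlap, whereas 2 of the 4 MYC tumours were higher and 2 lower than their own non-tumour liver. Emcn rose by 1.19 in MYC/REG3A tumours (SE 0.257, limma adjusted p = 0.0207) and differed by 0.40 in MYC tumours (SE 0.257, adjusted p = 0.264). The difference between these changes was 0.79 (SE 0.364, adjusted p = 0.873).

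Plvap forms the diaphragms of endothelial fenestrae and caveolae. It had 7.19, 8.09, 7.08 and 7.77 in MYC/REG3A tumours 1 to 4, against 8.39, 8.65, 8.38 and 8.31 in non-tumour liver. MYC mice 1 to 4 had 7.66, 8.05, 7.87 and 6.98 in tumours, against 9.31, 8.43, 8.79 and 8.53 in non-tumour liver. All tumours lay below all non-tumour livers. Plvap fell by 0.90 (SE 0.215, limma adjusted p = 0.0273) in MYC/REG3A tumours and by 1.12 (SE 0.215, adjusted p = 0.00426) in MYC tumours.

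Vwf encodes von Willebrand factor, which endothelium of larger vessels and megakaryocytes make. It had 5.80, 5.96, 5.72 and 5.69 in MYC/REG3A tumours 1 to 4, against 6.36, 5.85, 6.14 and 6.00 in non-tumour liver. MYC mice had 6.39, 5.83, 7.12 and 6.24 in tumours, against 7.30, 6.18, 7.85 and 6.32 in non-tumour liver. MYC mice 1 and 3 were high in both tissues, and the tissues overlapped in both genotypes. Vwf fell by 0.52 in MYC tumours (SE 0.154, limma adjusted p = 0.0281) and differed by -0.29 in MYC/REG3A tumours (SE 0.154, adjusted p = 0.231). Its MYC call was lost without mouse 1 or 3 (adjusted p = 0.122 and 0.0999), and without the mouse as a block both this call and that of the mean over genotypes were lost (adjusted p = 0.228 and 0.161), as they were with the mouse as a random block (adjusted p = 0.179 and 0.122). Of the platelet and megakaryocyte markers 5 were tested. In the mean over genotypes 2 fell, where 21.4% of all tested genes passed as lower, Ppbp by 0.80 (SE 0.111) and Gp9 by 0.37 (SE 0.1). The part of these cells in the value of Vwf was not tested.

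**Figure D2:**
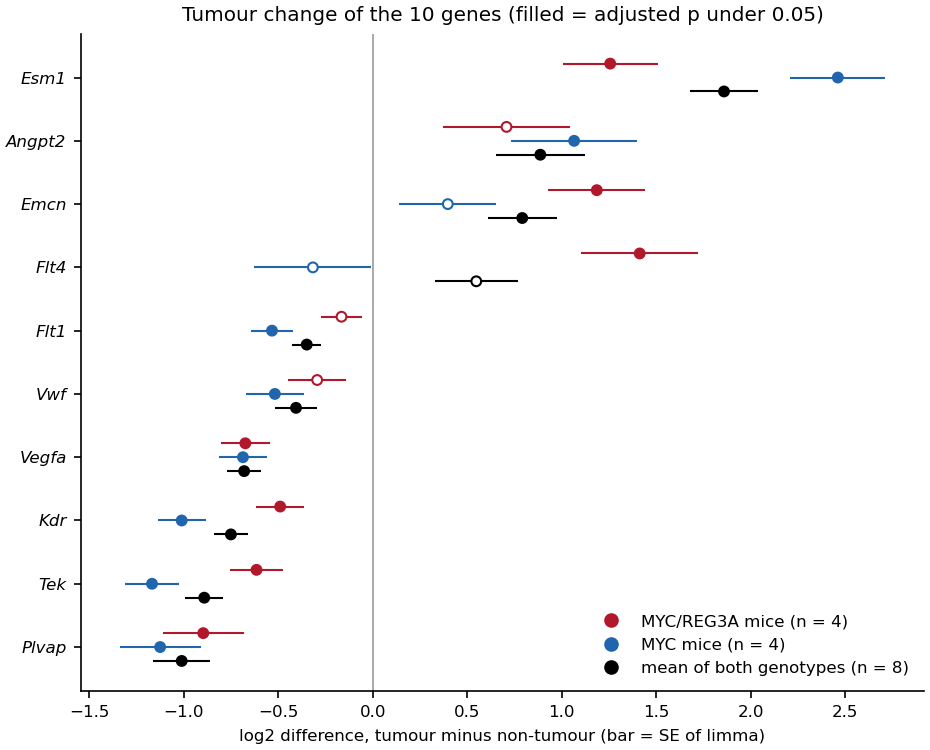
Log2 difference, tumour minus non-tumour, of the 10 genes in MYC/REG3A mice (red), MYC mice (blue) and as the mean of both (black); bars are the standard errors of limma and filled points passed an adjusted p of 0.05. Esm1, Angpt2 and Emcn stand on the right and Plvap, Tek, Kdr and Vegfa on the left; Flt4 has opposite signs, 1.41 in MYC/REG3A mice and -0.32 in MYC mice.

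By genotype, 3 of the 10 genes rose (Flt4, Emcn and Esm1) and 4 fell (Kdr, Tek, Plvap and Vegfa) in MYC/REG3A tumours, where 12.5% of all tested genes passed, 7.58% higher and 4.88% lower. In MYC tumours 2 passed as higher (Esm1, and Angpt2, which was tested only through its tumour values) and 6 fell (Kdr, Flt1, Tek, Plvap, Vwf and Vegfa), where 33.2% of all tested genes passed, 17.4% higher and 15.8% lower. The MYC/REG3A count changed when a mouse was left out: 0 of the 10 passed without mouse 1 and 0 without mouse 3. In these settings 281 and 273 of all tested genes passed, against 1690 with all mice. The 7 genes had limma adjusted p of 0.055 to 0.163 there. Since the calls over all genes fell as well, the count of 0 is not read as a result about these genes. All 7 genes kept their sign in both settings. Without mice 2 and 4 together 4 of the 10 passed, namely Emcn, Tek, Plvap and Vegfa. The share of all tested genes in that setting is not given here, so nothing is read from this count. The mean over genotypes passed for the same number, 9 of 10, when any 1 of the 8 mice or MYC/REG3A mice 2 and 4 were left out. With 1 mouse left out, 4727 to 5554 of all tested genes passed in that mean, against 5822 with all mice. The count over all genes in that mean without mice 2 and 4 is not given here. Nothing is therefore read from the 9 of 10 in that setting.

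The tumour change of the MYC/REG3A mice minus that of the MYC mice was tested for all 10 genes. At a limma adjusted p under 0.05, 0 of the 10 and 0.00738% of all genes passed. An unadjusted p under 0.05 was found for 5 (Kdr, Flt1, Flt4, Tek and Esm1). The share of all genes under that unadjusted threshold was not counted, here or in the comparisons below, so nothing is read from such counts. For Kdr and Tek the differences were 0.52 (SE 0.181) and 0.55 (SE 0.199). Between tumours, MYC/REG3A minus MYC, 0 of the 10 passed at a limma adjusted p under 0.05. Of all genes 0.0221% passed at that threshold, 0.00738% higher and 0.0148% lower. An unadjusted p under 0.05 was found for 2 of the 10 (Flt4 and Esm1). Flt4 averaged 9.16 ± 0.473 in MYC/REG3A tumours and 7.80 ± 0.994 in MYC tumours (SD, n = 4 each), a difference of 1.36 (SE 0.368, limma adjusted p = 0.272). Without MYC mouse 2 this difference was 1.85 and passed (limma adjusted p = 0.00548), where 21 of all tested genes passed. In that setting the difference of the tumour changes passed for 0 of all genes, Flt4 included. Esm1 averaged 7.06 ± 0.831 in MYC/REG3A tumours and 8.24 ± 0.981 in MYC tumours (SD, n = 4 each), with a limma adjusted p of 0.435.

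In non-tumour liver, MYC/REG3A minus MYC, 0 of the 10 and 0% of all tested genes passed at a limma adjusted p under 0.05. An unadjusted p under 0.05 was found for 3 (Flt1, Tek and Vwf), again without a share of all genes at that threshold. Flt1 averaged 6.32 ± 0.0607 in MYC/REG3A mice and 6.95 ± 0.153 in MYC mice (SD, n = 4 each) without overlap, a difference of -0.63 (SE 0.139, limma adjusted p = 0.904, unadjusted p = 0.000385). Vwf differed by -0.83 (SE 0.318, adjusted p = 0.904). The other 8 genes differed by -0.56 to 0.072.

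General endothelial transcripts were measured beside the set with a list of 14 genes, among them Pecam1, the adhesion molecule of endothelial junctions, Cdh5, which encodes VE-cadherin, and Tie1, an orphan receptor that pairs with TEK. Their mean level was 6.58 to 6.904 in MYC/REG3A tumours and 6.598 to 6.977 in MYC/REG3A non-tumour liver. It was 6.67 to 7.079 in MYC tumours and 7.038 to 7.321 in MYC non-tumour liver. In MYC/REG3A tumours 0 of the 14 passed (median -0.00885), where 4.88% of all genes passed as lower, and in MYC tumours 7 fell and 0 rose (median -0.35), where 15.8% did. The difference between these changes passed for 0 of the 14. In the mean over genotypes 6 fell, where 21.4% of all genes did, including Eng, a co-receptor for BMP9, by 0.76 (SE 0.125), Erg, an ETS factor, by 0.47 (SE 0.0851), Myct1 by 0.43 (SE 0.0916) and Clec14a by 0.45 (SE 0.112). Cdh5 fell by 0.48 (SE 0.163, limma adjusted p = 0.0387), and Pecam1 and Tie1 differed by -0.13 (SE 0.128, adjusted p = 0.446) and -0.077 (SE 0.109, adjusted p = 0.603).

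The mean of these 14 genes was subtracted on each array to set the 10 genes against the endothelium of the same piece of tissue, a scaling that moved the median of all genes to 0.182 in the mean over genotypes and to 0.368 in MYC mice. Relative to it, 4 of the 10 genes were higher in tumours, Esm1 by 2.06 (SE 0.155), Emcn by 0.998 (SE 0.145), Flt4 by 0.75 (SE 0.167) and, with the same condition on its test, Angpt2 by 1.09 (SE 0.203), where 31.5% of all genes passed as higher. Another 4 were lower, Plvap by -0.80 (SE 0.124), Tek by -0.68 (SE 0.118), Kdr by -0.54 (SE 0.115) and Vegfa by -0.47 (SE 0.121), where 7.31% passed as lower (limma adjusted p of 2e-06 to 0.00715 for the 8). In all, 38.8% of the tested genes passed. Hepatocytes are a main source of VEGF-A, so the Vegfa value relative to the list is not read as a level within endothelium. Relative to the list, Flt1 differed by -0.14 (SE 0.108, adjusted p = 0.308) and Vwf by -0.20 (SE 0.133, adjusted p = 0.247). By genotype, Flt4, Emcn and Esm1 were higher and Tek, Plvap and Vegfa lower in MYC/REG3A tumours, 3 genes each way, where 1085 of all genes (8%) passed, 5.25% higher and 2.76% lower. Without mice 2 and 4, Tek and Vegfa did not pass (-0.88 and -0.87, limma adjusted p = 0.0528 and 0.0636), while Angpt2 did (1.30, adjusted p = 0.0346). Tek and Vegfa also lost their calls without mouse 1, 3 or 4 (adjusted p = 0.0763 to 0.265), Plvap without mouse 1 or 3 (adjusted p = 0.0784 and 0.0876), and Esm1 and Vegfa without the mouse as a block (adjusted p = 0.0967 and 0.0541). Tek lost it without MYC mouse 3 or 4 too (adjusted p = 0.059 and 0.0533), and Esm1 with the mouse as a random block (adjusted p = 0.0554). In MYC tumours Emcn, Esm1 and, conditionally, Angpt2 were higher and Kdr, Tek and Plvap lower, also 3 each way, where 44.3% passed, 40.4% higher and 3.90% lower. With Cdh5 alone in place of the list, the 4 higher genes passed and the 4 lower ones did not, at -0.53 for Plvap, -0.41 for Tek, -0.27 for Kdr and -0.20 for Vegfa (adjusted p = 0.0599, 0.137, 0.323 and 0.468). Cdh5 was itself lower in the tumours. The shares of all genes that passed as higher and as lower with Cdh5 in this mean are not given here, so nothing is read from this split.

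**Figure D3:**
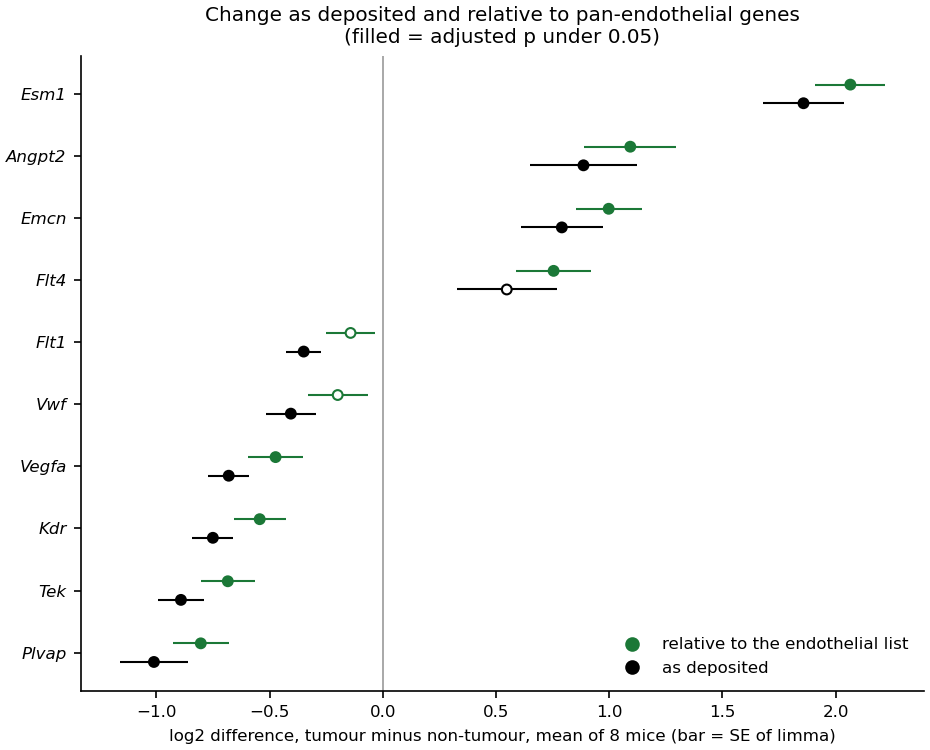
Log2 difference, tumour minus non-tumour, as the mean of 8 mice, from the values as deposited (black) and after subtraction of the mean of 14 pan-endothelial genes on each array (green); bars are the standard errors of limma and filled points passed an adjusted p of 0.05. Flt4 passed only after the subtraction and Flt1 and Vwf only before it.

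Other ligands and receptors of the pathway were measured beside the 10 genes. Of 14 listed VEGF and angiopoietin genes 8 were tested, and in the mean over genotypes 2 fell and 0 rose (median -0.213), where 21.4% of all tested genes passed as lower and 21.5% as higher. Nrp1, the co-receptor of KDR, fell by 1.42 (SE 0.138, limma adjusted p = 0.000144), with a level of 7.89 ± 0.377 in MYC/REG3A tumours, against 8.99 ± 0.128 in MYC/REG3A non-tumour liver, and of 7.26 ± 0.307 in MYC tumours, against 9.02 ± 0.348 in MYC non-tumour liver (SD, n = 4 each). Ptprb, the phosphatase that restrains TEK, fell by 1.07 (SE 0.121, adjusted p = 0.00025). Vegfb, Vegfc, Vegfd and Nrp2 differed by -0.090, -0.17, -0.29 and -0.25 (SE 0.138, 0.0777, 0.12 and 0.191) without passing. Pgf and Angpt1, the ligands of FLT1 and of TEK, did not exceed the array median often enough to be tested. Angpt1 averaged 3.63 in MYC/REG3A tumours and 3.83 in MYC/REG3A non-tumour liver, and 3.62 in MYC tumours and 3.86 in MYC non-tumour liver, close to the lower quartile of the arrays.

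Tip cell and Notch genes other than Esm1 went both ways. Of 22 listed genes 17 were tested, and in the mean over genotypes 4 rose and 2 fell (median 0.197), where 21.5% of all tested genes passed as higher and 21.4% as lower, so the share that rose was near that of all genes. Notch1 rose by 0.55 (SE 0.0924, limma adjusted p = 0.00142), Unc5b, a netrin receptor of tip cells, by 0.47 (SE 0.119), Cd34 by 0.71 (SE 0.237) and Pdgfb, with which tip cells recruit pericytes, by 0.33 (SE 0.112). The Notch ligands Dll1 and Jag1 fell by 0.41 (SE 0.0702) and 0.40 (SE 0.128). Dll4, the Notch ligand of tip cells, differed by 0.19 (SE 0.102, adjusted p = 0.157), and Apln, another tip cell gene, was too low to be tested.

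Sinusoidal endothelial markers were lower in the tumours. Of 20 tested, 17 fell and 1 rose in the mean over genotypes (median -0.815), where 21.4% of all genes passed as lower. Stab2, a scavenger receptor of the sinusoids, fell by 0.87 (SE 0.0981), Rspo3, which amplifies Wnt signals, by 1.60 (SE 0.184), Maf by 1.18 (SE 0.14) and Mrc1, the mannose receptor, which macrophages also carry, by 0.98 (SE 0.129). Ctsl, a lysosomal protease, was the gene that rose, by 0.28 (SE 0.0893), and Lyve1 differed by 0.26 (SE 0.172, adjusted p = 0.26). The mean level of the list was 7.009 to 7.898 in MYC/REG3A tumours, against 7.907 to 8.128 in MYC/REG3A non-tumour liver, and 7.159 to 7.452 in MYC tumours, against 8.039 to 8.511 in MYC non-tumour liver. In MYC/REG3A tumours 12 fell and 0 rose, where 4.88% of all genes passed as lower, and in MYC tumours 16 fell and 1 rose, where 15.8% did, beside the falls of Kdr and Tek, and the part of these cells in the values of Kdr and Tek was not tested. Of 18 endothelial transcription factors 9 fell and 1 rose (median -0.255), where 21.4% of all genes passed as lower and 21.5% as higher. Foxf1 fell by 1.12 (SE 0.136), Ets1 fell by 0.54 (SE 0.0747), Klf2, which responds to blood flow, fell by 0.64 (SE 0.0934) and Erg fell by 0.47.

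**Figure D4:**
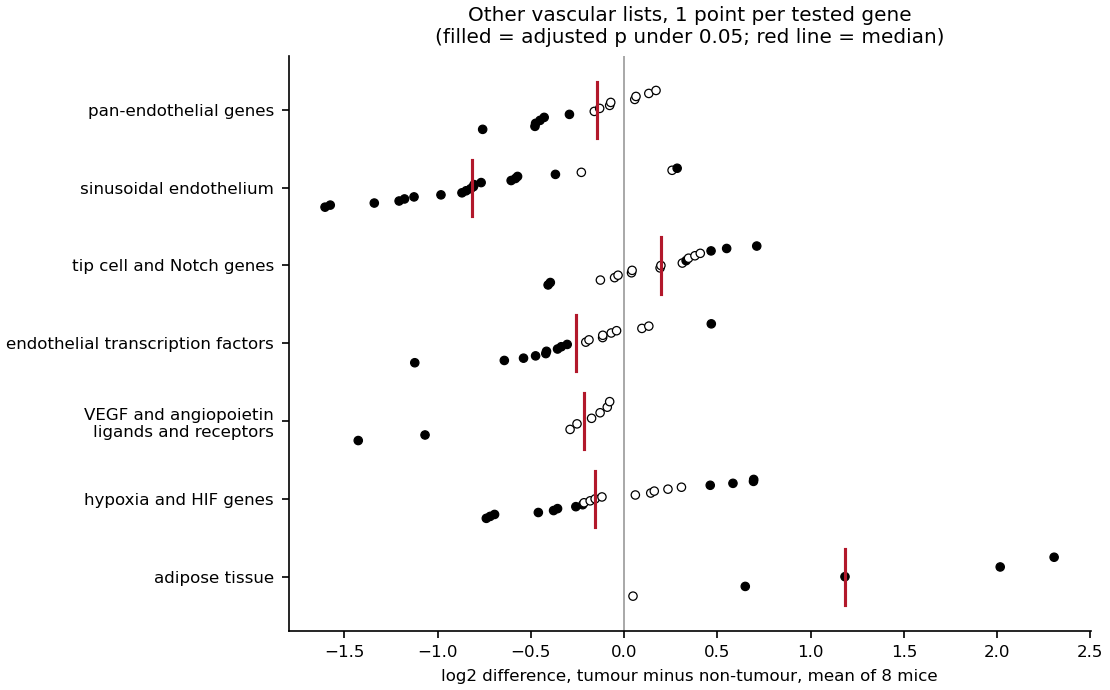
Log2 difference, tumour minus non-tumour, as the mean of 8 mice for the tested genes of 7 lists (pan-endothelial, sinusoidal, tip cell and Notch, transcription factors, VEGF and angiopoietin, hypoxia, adipose); each point is a gene, filled where it passed an adjusted p of 0.05, and the red line is the list's median. Among these 7, the sinusoidal list has the lowest median, -0.815, and the medians of the tip cell and Notch list, 0.197, and of the adipose list, 1.18, lie above 0.

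The HIF factors, known inducers of Vegfa in hypoxia, were measured with their regulators and targets, and these went both ways. Of 21 tested, 4 rose and 8 fell in the mean over genotypes (median -0.155). As for every list here, these counts stand against 21.5% of all tested genes higher and 21.4% lower, and the share that rose was near that of all genes. Ddit4, P4ha2, Car9 and Ndrg1 rose by 0.69, 0.46, 0.58 and 0.69 (SE 0.0912, 0.0889, 0.148 and 0.187). Epas1, which encodes a HIF subunit, and Vldlr fell by 0.74 and 0.69 (SE 0.104 and 0.142), and Hif1a fell by 0.26 (SE 0.078, limma adjusted p = 0.0234). Among other angiogenic growth factors 8 of 19 fell and 1 rose (median -0.179), where Hgf fell by 1.70 (SE 0.201), Cxcl12 fell by 0.90 (SE 0.11), Fgf1 fell by 1.08 (SE 0.14) and Gdf2, the gene of BMP9, fell by 1.23 (SE 0.173). Of 13 angiogenesis inhibitors 2 fell and 0 rose, Thbs2 by 0.43 (SE 0.111) and Plg, the precursor of angiostatin, by 0.29 (SE 0.0815).

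Markers of other cells that a piece of liver can hold moved as well. In the mean over genotypes 21.4% of all tested genes passed as lower and 21.5% as higher. Beside that, 11 of 14 macrophage genes fell (median -1.05). Of 17 genes of pericytes, stellate cells and smooth muscle 9 fell and 2 rose (median -0.684). Of 13 genes of larger vessels 7 fell and 0 rose (median -0.361), and 4 of 10 hepatocyte genes fell (median -0.147). On the lymphatic list 2 of 4 genes fell (median -0.238). That list shares Reln with the stellate list and Lyve1 with the sinusoidal list, so its count is not read as a change of lymphatic vessels. Of 5 tested adipose genes 4 rose, among them Fabp4, which capillary endothelium also expresses, by 2.31 (SE 0.317), while Adipoq, which defines adipocytes, had group means of 3.87 in MYC/REG3A tumours, 3.92 in MYC/REG3A non-tumour liver, 3.79 in MYC tumours and 3.85 in MYC non-tumour liver, close to the lower quartile of the arrays. Of 6 genes listed for kidney, lung and gut 2 were tested, Fabp2, which rose by 1.15 (SE 0.247), and Lgr5, which fell by 2.31 (SE 0.525). In MYC/REG3A and MYC non-tumour liver Fabp2 averaged 8.08 and 8.17 and Lgr5 7.89 and 7.92. Both were thus well measured in the liver itself, and neither is read as a sign of kidney, lung or gut cells. The part of other cell types in the values of the 10 genes was not tested.

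Across the 16 arrays, after removal of the 4 group means, the 10 genes fell into partly separate patterns. The points share 8 mice and the processing of their arrays, so the following correlations (Pearson's r) are descriptions. Differences among the tumours of a group remain in them. MYC/REG3A tumours 2 and 4 had more Kdr, Tek and Vegfa than tumours 1 and 3, with Tek at 7.23 and 7.06 against 6.48 and 6.60. MYC tumour 2 had the most Flt4, Angpt2, Emcn and Esm1 of the MYC tumours, with Flt4 at 9.27 against 7.10 to 7.51. How far these few arrays set the r values was not tested. Kdr varied with Tek (r = 0.8), Tek with Vegfa (r = 0.756), Flt4 with Angpt2 (r = 0.773) and Emcn (r = 0.758), and Angpt2 with Esm1 (r = 0.763) and Emcn (r = 0.75), while Kdr and Flt4 had r = 0.158. With the mean of the 14 pan-endothelial genes, r was 0.769 for Flt4, 0.7 for Emcn, 0.611 for Kdr and 0.212 for Esm1. Among all tested genes the nearest to Kdr were Bmp2 (r = 0.926), Oit3 (r = 0.916) and Aqp1 (r = 0.897), of which Bmp2 and Oit3 are on the sinusoidal list. The nearest to Tek were Cyp3a16 (r = 0.924), Cyp2c69 (r = 0.917) and Ptprb (r = 0.915). The nearest to Vegfa were Acacb and Mat2b (both r = 0.921) and Acsl5 (r = 0.915), and the nearest to Flt4 was Bcl6b (r = 0.931). The nearest to Esm1 was Immp1l (r = 0.921), to Angpt2 Elp2 (r = 0.936), to Emcn Zfp263 (r = 0.916), to Plvap Fam189a2 (r = 0.942), to Flt1 Plekhd1os (r = 0.833) and to Vwf Poglut3 (r = 0.886).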

How the data were processed

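Total RNA from 16 pieces of liver was measured on 1-colour Affymetrix arrays. The deposited values are log2 expression. RMA and Expression Console 1.4.1 of Affymetrix are named in the submitters' processing notes. No source used here names the base of the logarithm, which is taken as 2 because the values reach 13.68. RMA equalises the arrays, so changes are relative to the other genes. Precision is limited by the number of arrays.

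Rows were named from the platform annotation, each gene was taken from its brightest row on average, and genes above the array median in at least 4 of 16 arrays were tested (13555). The test was limma 3.58.1 (R 4.3.3), 2-sided, with Benjamini-Hochberg adjustment over all tested genes, after the code was tested on simulated data. Tumour comparisons had the mouse as a block, because both pieces came from 1 animal, and the deviations of the pieces of a mouse from their group means correlated at 0.0963 to 0.326, with all 8 mice closest to their own; comparisons between genotypes used 4 group means. The standard errors pool the spread of all groups.

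The genes and lists were chosen with earlier results of these data known, so no list was tested as a whole. Always named were the 10 genes and Pecam1, Cdh5, Tie1, Vegfb, Vegfc, Pgf, Nrp1, Nrp2, Angpt1, Hif1a, Epas1, Dll4 and Apln; from each list up to 4 genes of lowest p in the mean over genotypes. Likeness used, per gene, the 3 highest correlations. Ctsl, Lyve1, Cd34, Pdgfb, Car9, Ndrg1 and Adipoq were added after their values were seen. Alternatives were the block, the filter, the choice of row, the eBayes prior, centring, the endothelial reference and leaving out mice.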

Additional observations from a re-analysis of the deposited data

How the results depend on the processing

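Leaving out 1 mouse moved the number of the 10 genes that passed to between 0 and 7 in MYC/REG3A tumours (7 with all mice), 7 and 8 in MYC tumours (8) and 9 in the mean over genotypes (9). In that mean the number was 8 without the replicate block and with a random replicate block, where Vwf lost its call (limma adjusted p = 0.161 and 0.122). It was also 8 with the stricter filter of 12 arrays, under which Angpt2 was not tested. The shares of all genes in these settings are not given here, so nothing is read from these counts. When 1 mouse was left out, the number stayed at 0 for the difference of changes and for non-tumour liver, and was 0 to 1 between tumours. Relative to the endothelial list it was 3 to 7 in MYC/REG3A mice, 6 in MYC mice and 8 in their mean. The counts over all genes ranged from 273 to 1849 in MYC/REG3A mice, 2975 to 4490 in MYC mice, 4727 to 5554 in their mean, 0 to 2 for the difference of changes, 3 to 114 between tumours and 0 to 22 in non-tumour liver, and relative to the list from 231 to 1653, 3608 to 8864 and 4179 to 7462.

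Without MYC/REG3A mice 2 and 4, 4 of the 10 genes passed in MYC/REG3A tumours, a count given without the share of all genes in that setting. Over all genes 0 passed between tumours (3 with all mice) and for the difference of changes (1). The last count was also 0 without the replicate block, without the filter and with the stricter filter, and 3 after median centring. With Cdh5 as the reference 3, 3 and 4 of the 10 genes passed in MYC/REG3A mice, MYC mice and their mean (6, 6 and 8 with the list). Of all genes 694 passed in MYC/REG3A mice (1085 with the list). For MYC mice and the mean the count over all genes with Cdh5 is not given here, so nothing is read from those counts. Without the filter 9544 genes passed relative to the list in MYC mice (6006).

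Signs turned only where a gene had not passed. With Cdh5 as the reference, Flt1 turned to 0.085 in MYC/REG3A mice, 0.17 in MYC mice and 0.13 in their mean, Vwf to 0.19 in MYC mice and 0.071 in the mean, and Vegfa to 0.018 in MYC mice. Without MYC/REG3A mice 2 and 4, the difference of changes turned to 0.18 for Angpt2, -0.12 for Plvap and -0.24 for Vegfa, the difference between tumours to 0.00601 for Angpt2, -0.0965 for Kdr, -0.051 for Tek and -0.27 for Vegfa, and that in non-tumour liver to -0.0365 for Vegfa. Leaving out 1 mouse turned the difference of changes of Vegfa (-0.14 to 0.137) and Angpt2 (-0.65 to 0.0353), the difference between tumours of Plvap (-0.324 to 0.0459), Vegfa (-0.0857 to 0.217) and Emcn (-0.0226 to 0.522), that in non-tumour liver of Esm1 (-0.17 to 0.29), and Flt4 relative to the list in MYC mice (-0.274 to 0.223). The cause of these moves was not tested. The settings without mice also had fewer mice, and the part of that in the moves was not tested either. No mouse was left out where Cdh5 was the reference.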
